A study of Mus musculus with 6 samples.

Results

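The metallothioneins Mt1, Mt2, Mt3 and Mt4 and their zinc-sensing regulator Mtf1 were followed in Paneth cells of mice kept on a standard or a zinc depleted diet. The 5 genes were chosen by name and were looked up by Ensembl identifier among the 55414 identifiers of a gene-level count table. Counts were found for 4 of them. Mt4 had a count of 0 in every library. The same 4 genes were among the 9749 that passed the filter on low counts.

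Metallothioneins are small, cysteine-rich proteins that bind zinc and copper and buffer the free zinc of the cell. Mtf1 is a zinc finger transcription factor that binds metal response elements (MREs) when zinc is high and switches on Mt1, Mt2 and the zinc exporter Slc30a1. The Mt1 and Mt2 promoters also respond to glucocorticoids, to oxidative stress and to inflammatory cytokines. Paneth cells sit at the base of small intestinal crypts, release antimicrobial peptides such as the α-defensins, and store zinc in their secretory granules.

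Bulk RNA-seq was available for 6 libraries of FACS-sorted Paneth cells from the small intestine of WT mice (C57BL/6J per the methods of the study), 3 on standard chow and 3 on zinc depleted chow. Both groups ate their chow for 7 weeks, and every mouse was given TNF 3 hours before sampling, so the controls carry the TNF treatment too. There was no group without TNF, so levels here are levels after TNF. The design text speaks of 4 replicates per group, and the 3 per group with labels were analysed. The zinc content of the cells was not among the measurements, so the diet label is the only statement on zinc status. Since the RNA came from bulk samples, fewer Paneth cells and less RNA per cell cannot be told apart.

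Total counts ranged from 6139397 to 12772373. The sorted cells carried the markers of Paneth cells: 8 of these (among them Lyz1, Defa24 and Mmp7) summed to between 511854 and 645046 CPM, which are counts divided by the library total and put on a common scale. Some libraries stood apart from others of their diet. Normalization factors from TMM, which equalize the typical gene, ran from 0.459 to 1.73, and the standard diet replicates 1 and 2 had the highest of the 6. For this reason levels are given as CPM of the total counts, with TMM-scaled CPM beside them for the members and Nfkbia, and for other genes where noted, since the order of libraries can differ between the scales. The same replicates 1 and 2 had the highest share of the ribosomal RNA Rn18s-rs5, at 2.56% and 2.91% of counts, against 1.27% in standard diet replicate 3 and 0.522–0.884% on the zinc depleted diet. The α-defensin genes took 46.3%, 45.5% and 55.3% of counts in standard diet replicates 1, 2 and 3. In zinc depleted diet replicates 1, 2 and 3 they took 46.6%, 55.7% and 60.5%. Standard diet replicates 1 and 2 and zinc depleted diet replicate 1 were lowest in this share and had the highest TMM factors. CPM divides by a total that includes these counts. Markers of stem and proliferating cells summed to 1189–3661 CPM on the standard diet and to 477–584 CPM on the zinc depleted diet. Enterocyte markers summed to 50.8–220 and 36.2–46.4 CPM, and goblet markers to 1492–2903 and 1727–6352 CPM, with the maximum in zinc depleted diet replicate 1. Enteroendocrine markers summed to 35.5–82.4 CPM on the standard diet and 23.4–33.9 CPM on the zinc depleted diet, and tuft markers to 21.6–665 and 25.3–175 CPM. The 8 immune markers summed to 73.0–157 and 66.7–91.4 CPM, mostly from Cd74 and Lyz2, while Cd3e and Itgax were at 0 in all libraries. The part of these other cells and of the ribosomal RNA and α-defensin shares in the results below was not tested.

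The 4 metallothionein genes lie in a row on the plus strand of chromosome 8 (build GRCm39), each with 3 exons. Mt4 spans chr8:94863825-94865661, Mt3 chr8:94879220-94881088, Mt2 chr8:94898819-94900207 and Mt1 chr8:94905710-94906955. The gaps between neighbours are 13558, 17730 and 5502 bases in that order, so Mt2 and Mt1 form the closest pair. Mt1 and Mt2 both have a coding sequence of 183 bases, that of Mt3 has 204 and that of Mt4 has 186. Mtf1 lies on chr4:124695897-124743593, plus strand, with 11 exons and 2025 coding bases.

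Mt2 overlaps Gm45774, a lncRNA on the opposite strand. Of 608 stretches of 75 bases in the Mt2 transcript, 301 also lie in that lncRNA, whose own count was 0 in 5 libraries and 1 in the other. How the counting treated strand and overlap is not given in the sources used here, so the level of Mt2 is uncertain. Mtf1 overlaps the opposite-strand gene 1110065P20Rik, with 90.9% of its stretches unique. All stretches of Mt1, Mt3 and Mt4 were unique to the gene.

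The MRE core is the sequence feature through which Mtf1 acts, so the promoters were searched for it on both strands, as TGCACNC or TGCGCNC. The windows came from RefSeq and ran from 250 bases before the RefSeq start to 50 bases from it. They were taken from a table of build GRCm38.p6 and were placed on GRCm39 by exact match. Each match is shown on the plus strand with 10 bases on either side and with the core in capitals. GTGTGCA and GTGCGCA are cores read on the minus strand. The Mt1 window held 3 matches, at chr8:94905684-94905710, chr8:94905709-94905735 and chr8:94905727-94905753:
Mt1 match at 94905694: ggtcccgctgTGCACACtggcgctcca
Mt1 match at 94905719: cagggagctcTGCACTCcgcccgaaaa
Mt1 match at 94905737: gcccgaaaagTGCGCTCggctctgcca

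The Mt2 window held 4 matches, at chr8:94899013-94899039, chr8:94899108-94899134, chr8:94899186-94899212 and chr8:94899240-94899266. The RefSeq start of Mt2 used for this window lies inside the longer GENCODE gene.
Mt2 match at 94899023: gcatcgcctcTGCACCCggcccctcgg
Mt2 match at 94899118: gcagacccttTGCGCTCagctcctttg
Mt2 match at 94899196: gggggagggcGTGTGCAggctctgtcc
Mt2 match at 94899250: aattcgggtcGTGCGCAggcccagggg

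Among 32851 promoter windows of the same length, 25.7% held at least 1 MRE core, 1.97% held at least 3 and 0.517% held at least 4. Mt3 and Mt4 had 1 match each, at chr8:94879252-94879278 and chr8:94863731-94863757:
Mt3: gggacagcagTGCACACacacggagag
Mt4: tcactgggccGTGTGCAgggcgtctgg

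The Mtf1 window held no match. The antioxidant response element core TGACNNNGC, searched in the same way, was found in the Mt2 window at chr8:94899157-94899185 and in 12.4% of all windows:
Mt2 antioxidant core: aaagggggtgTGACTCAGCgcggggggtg
These matches describe the letters in the windows and say nothing of binding in these cells.

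Mt1 was the most abundant member in every library. Its counts were 176, 127 and 460 in standard diet replicates 1, 2 and 3, and 697, 69 and 148 in zinc depleted diet replicates 1, 2 and 3. As CPM of total counts these were 24.0, 20.7 and 46.1 on the standard diet and 69.8, 9.29 and 11.6 on the zinc depleted diet. In CPM the highest Mt1 level and the lowest both came from zinc depleted mice. In TMM-scaled CPM, at 13.9, 13.8 and 51.5 against 48.0, 14.5 and 25.3, both came from standard diet mice instead, and the groups overlapped on either scale. The means were 30.3 ± 13.8 CPM (SD, n = 3) on the standard diet and 30.2 ± 34.3 CPM (SD, n = 3) on the zinc depleted diet.

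Mt2 showed the same high libraries at a lower level. Its counts were 12, 10 and 101 on the standard diet and 171, 14 and 61 on the zinc depleted diet, in the order of the replicates. As CPM the standard diet values were 1.64, 1.63 and 10.1, and the zinc depleted values were 17.1, 1.88 and 4.78. In TMM-scaled CPM they were 0.949, 1.08 and 11.3 against 11.8, 2.95 and 10.4. Standard diet replicate 3 and zinc depleted diet replicate 1 were highest within their diets for Mt1 and for Mt2, on both scales. In CPM this was common for zinc depleted diet replicate 1, the highest of its diet for 83.6% of all genes tested (44.4% in TMM-scaled CPM), and less so for standard diet replicate 3, the highest of its diet for 8.95% (39.7% in TMM-scaled CPM). The groups overlapped, with means of 4.46 ± 4.90 and 7.92 ± 8.09 CPM (SD, n = 3 each).

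Mt3, the form best known from brain, was near the limit of detection in Paneth cells. It had 9, 6 and 8 counts on the standard diet and 14, 11 and 11 on the zinc depleted diet, which is 0.802–1.48 CPM over the 6 libraries (0.651–0.895 TMM-scaled CPM on the standard diet and 0.963–2.32 on the zinc depleted diet). Mt4, the form of stratified squamous epithelium, had no count, and a count of 0 allows up to 3 counts, or 0.235–0.489 CPM depending on the library. Its absence cannot be stated below that level.

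Mtf1 was expressed at a low level in all libraries. Counts were 47, 25 and 38 on the standard diet and 87, 21 and 39 on the zinc depleted diet, or 6.40, 4.07 and 3.81 CPM against 8.71, 2.83 and 3.05 CPM. In CPM the highest value and the 2 lowest were all from zinc depleted mice. The group means of 4.76 ± 1.43 and 4.86 ± 3.33 CPM (SD, n = 3 each) lay within each other's spread.

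Levels of different genes were compared per length, as counts per transcript base scaled to the same sum in each library (TPM-like values). Averaged over the 6 libraries, Mt1 reached 35.9, Mt2 5.83, Mt3 0.833 and Mtf1 0.411 on that scale, beside 50.3 for Nfkbia, the inhibitor of NF-κB. Mt1 ranked between 158 and 710 among all genes, Mt2 between 795 and 6143, and Mtf1 between 7058 and 9865. The order Mt1 over Mt2 held in each library, with Mt1-to-Mt2 ratios per length from 3.01 to 18.2. Mt2 was above Mt3 on average, but in standard diet replicates 1 and 2 and in zinc depleted diet replicate 2 the pair differed by few counts.

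**Figure D1:**
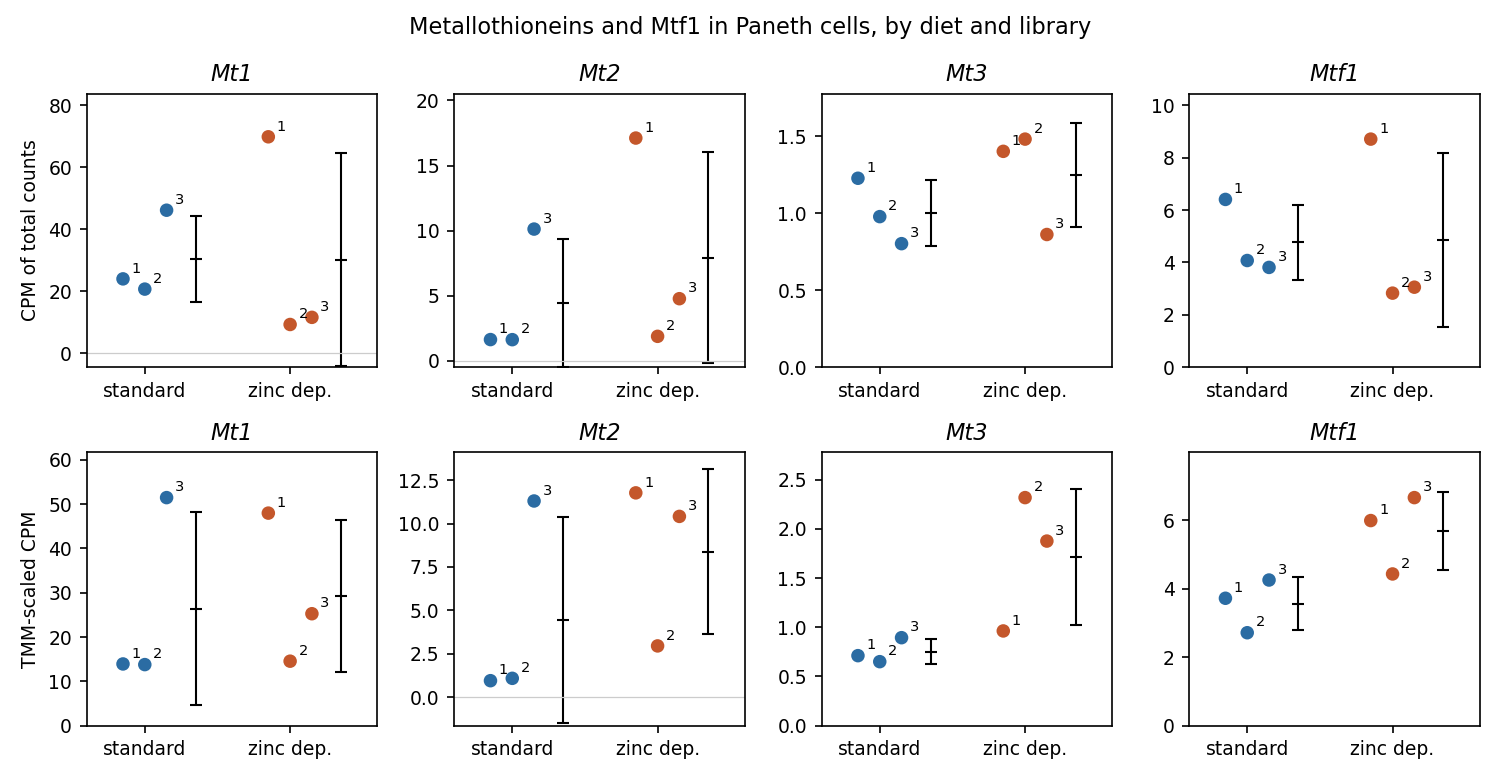
Levels of Mt1, Mt2, Mt3 and Mtf1 by diet, as CPM of total counts (upper row) and TMM-scaled CPM (lower row). Points are libraries with their replicate number, and bars are the mean and SD of 3 libraries; Mt1 and Mt2 were highest in standard diet replicate 3 and zinc depleted diet replicate 1 of their diets on both scales.

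The diet contrast asks whether the metallothionein system differed after 7 weeks of zinc depletion. No member was called by edgeR's quasi-likelihood test at an adjusted p under 0.05, in a fit over all genes that called 0 of 9749 (0%), beside 10 genes by DESeq2 and 0 by limma-voom, none of them a member. The log2 fold change, zinc depleted against standard, was 0.16 for Mt1 (SE 0.59, 95% interval −1.15 to 1.46, edgeR adjusted p = 0.943). That of Mt2 was 0.95 (SE 0.86, interval −0.93 to 2.83, edgeR adjusted p = 0.755). These intervals leave room for a rise as well as a fall, so neither a change nor equality was shown.

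For Mt3 the log2 fold change was 1.13 (SE 0.66, interval −0.32 to 2.59, edgeR adjusted p = 0.681), at 6 to 14 counts a library. Mtf1 had 0.68 (SE 0.43, interval −0.27 to 1.63, edgeR adjusted p = 0.694). All 4 members tested had positive estimates with a median of 0.81, beside a median of 0.00 over all genes tested, of which 4876 were higher and 4873 lower. No member passed an unadjusted p under 0.05 in edgeR, which 645 genes (6.62%) did. Of those 645, 252 were higher on the zinc depleted diet.

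The size of these estimates depended on how libraries were scaled, and the sign did so for Mt1 alone. With total counts alone the median of all genes moved to −0.67, and of 593 genes at an unadjusted p under 0.05 only 8 had a higher level on the zinc depleted diet. On that scale the estimates were −0.00 for Mt1, 0.81 for Mt2, 0.31 for Mt3 and 0.03 for Mtf1. In TMM-scaled CPM the diets did not overlap for Mt3 and Mtf1, 2 of the 4 members, beside 983 of all genes tested (10.1%). Mtf1 was then at 3.72, 2.71 and 4.25 on the standard diet and at 5.99, 4.43 and 6.66 on the zinc depleted diet. In CPM of total counts 0 of the 4 members and 1058 of all genes (10.9%) had diets that did not overlap, so the separation of Mtf1 and Mt3 was seen on 1 scale and not on the other.

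Single libraries also turned the sign for Mt1. Its estimate was −0.39 without zinc depleted diet replicate 1 and 1.14 without standard diet replicate 3, the highest library of each diet. For Mt2 the estimate without standard diet replicate 3 was 3.10 (edgeR adjusted p = 0.103), and it remained positive in each fit that left out a library.

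**Figure D2:**
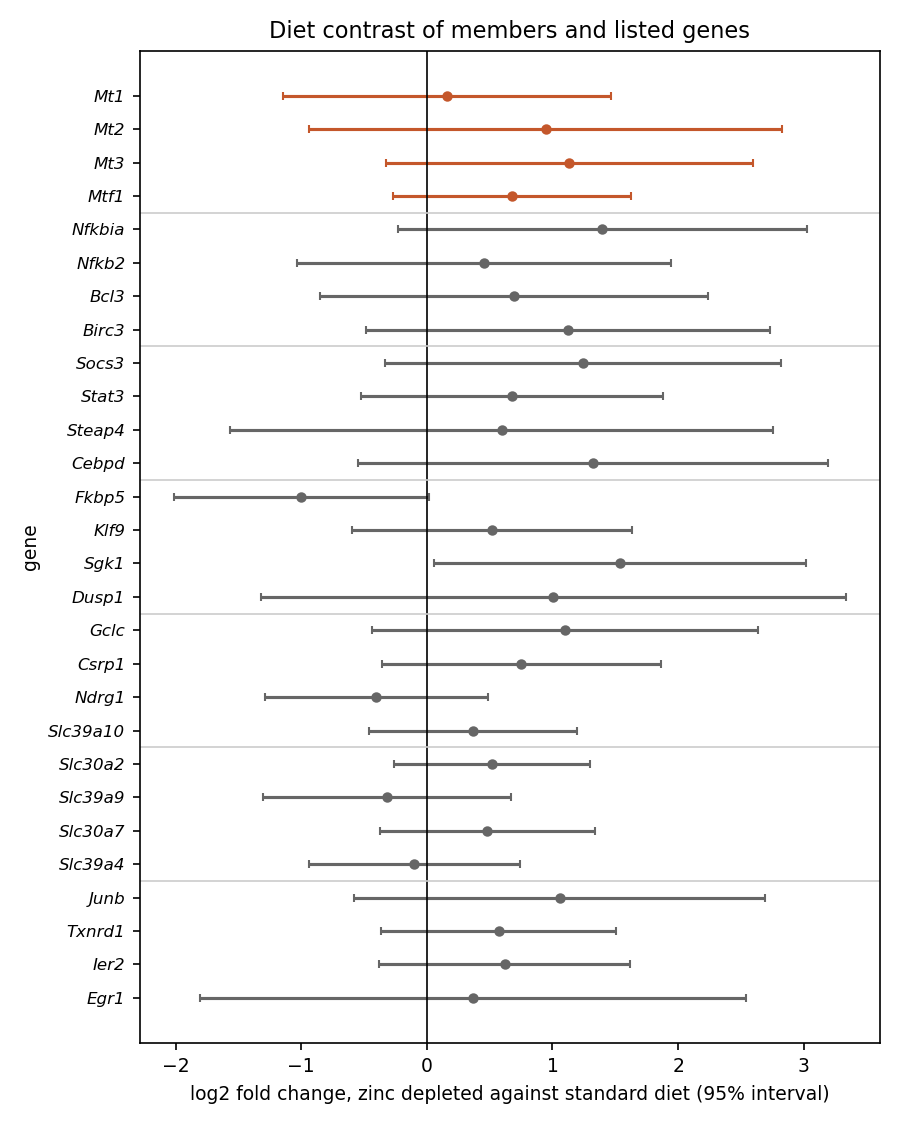
Log2 fold change of the 4 tested members (orange) and of 24 listed genes (grey), zinc depleted against standard diet, with the 95% interval of the edgeR fit. Intervals of all members include 0, as do those of the other genes shown except Sgk1.

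Mt2 made up a larger part of the Mt1 and Mt2 counts in some libraries than in others, a measure that does not depend on scaling between libraries. In standard diet replicates 1, 2 and 3 the share of Mt2 was 6.38% (Wilson 95% interval 3.69–10.8), 7.30% (4.01–12.9) and 18.0% (15.0–21.4). On the zinc depleted diet it was 19.7% (17.2–22.5), 16.9% (10.3–26.3) and 29.2% (23.4–35.7). Standard diet replicates 1 and 2 lay below the rest, and standard diet replicate 3 lay among the zinc depleted libraries. The means were 10.6 ± 6.46% and 21.9 ± 6.45% (SD, n = 3 each), a difference of 11.4 percentage points with p = 0.2 in an exact two-sided permutation test, whose smallest possible p is 0.1. The intervals were computed within a library, so they describe counting error alone and not the spread between libraries. Reads were counted without molecular identifiers and may stem from the same molecule, so the intervals may be too narrow.

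Nfkbia, a direct NF-κB target that is induced by TNF, was the reference for the inflammatory state of a library. It lies on chr12:55535332-55539432 on the minus strand and overlaps Gm36634, a lncRNA on the opposite strand. Its counts were 251, 217 and 1616 on the standard diet and 3096, 832 and 1181 on the zinc depleted diet. In CPM these were 34.2, 35.3 and 162 against 310, 112 and 92.5. Nfkbia was thus highest in the same library of each diet as Mt1 and Mt2, and standard diet replicates 1 and 2 were the lowest of the 6 although these mice had been given TNF as well.

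In TMM-scaled CPM the 6 libraries fell into 2 clusters for Nfkbia, at 19.9 and 23.5 in standard diet replicates 1 and 2 and at 175–213 in the other 4. No correlation over the 6 libraries is given for Nfkbia with Mt1 or Mt2, because it would mostly describe that gap, and a cluster of 4 or fewer libraries is too small for one. The libraries are compared below by ratios instead. The diet contrast of Nfkbia itself had a log2 fold change of 1.40 (SE 0.74, interval −0.23 to 3.02, edgeR adjusted p = 0.681). Without standard diet replicate 3 it was 3.23 (edgeR adjusted p = 0.0283), in a fit that called 28 of 10151 genes. Leaving out any other single library gave no call for Nfkbia, and DESeq2 returned no p-value for it.

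The ratio of counts within a library shows how far Mt2 and Nfkbia moved together. Mt2 had 4.78 counts per 100 Nfkbia counts in standard diet replicate 1 (Wilson-based 95% interval 2.7–8.47), 4.61 in replicate 2 (2.47–8.60) and 6.25 in replicate 3 (5.11–7.64). On the zinc depleted diet it had 5.52 (4.74–6.44) in replicate 1, 1.68 (0.998–2.84) in replicate 2 and 5.17 (4.00–6.68) in replicate 3. In 5 libraries the ratio thus lay between 4.61 and 6.25, a range of 1.36-fold, while zinc depleted diet replicate 2 had an interval below the point estimates of all others. Over the 6 libraries the highest ratio was 3.71 times the lowest, and 0.811% of 9747 other tested genes held a narrower range against Nfkbia. These ratios were set up after the values had been seen and describe these libraries.

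Mt1 varied more against Nfkbia, with a highest ratio 8.45 times the lowest, and 10.8% of the other genes held a narrower range. It had 70.1 (57.8–85.0), 58.5 (47.0–72.8) and 28.5 (25.7–31.6) counts per 100 Nfkbia counts on the standard diet. The zinc depleted libraries had 22.5 (20.7–24.4), 8.29 (6.49–10.6) and 12.5 (10.6–14.9). All 3 zinc depleted libraries lay below all 3 standard libraries, with means of 52.4 ± 21.5 and 14.4 ± 7.30 (SD, n = 3 each). The log2 ratio differed by −1.88 with p = 0.1 in an exact two-sided permutation test, the smallest p this design can give. Diets did not overlap in this ratio for 2120 of 9748 genes (21.7%), so the separation is common among genes set against Nfkbia.

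The other members gave ratios whose diets overlapped, and 4 such ratios were computed in all. Mtf1 had 18.7 and 11.5 counts per 100 Nfkbia counts in standard diet replicates 1 and 2 and 2.35–3.30 in the other 4 libraries (exact permutation p = 0.4, n = 3 each). For Mt3 the ratio ran from 0.452 to 3.59 (exact permutation p = 0.3, n = 3 each), and for Mt2 the diets differed by −0.51 on the log2 scale (exact permutation p = 0.6, n = 3 each). Mt2 was the member that stayed closest to Nfkbia.

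**Figure D3:**
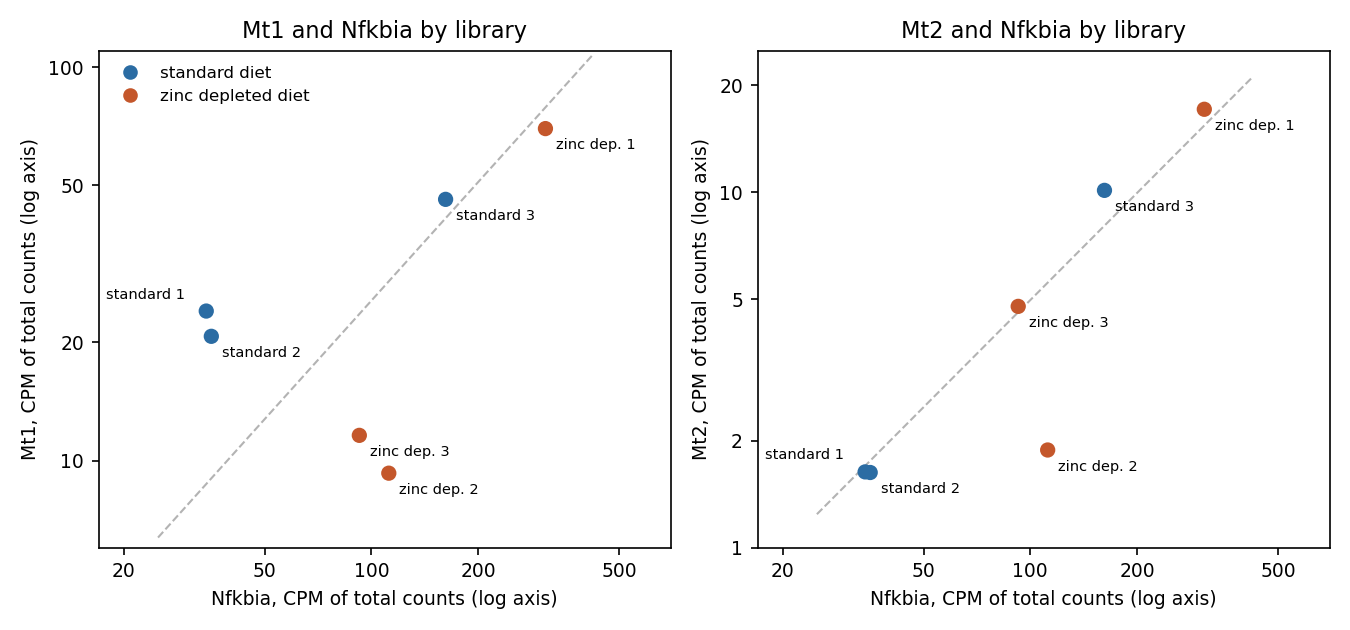
Mt1 (left) and Mt2 (right) against Nfkbia, in CPM of total counts on log axes, 1 point per library. The dashed line is a constant ratio, the median of the 6; for Mt2, 5 libraries lie near it and zinc depleted diet replicate 2 lies below, whereas for Mt1 the standard diet replicates 1 and 2 lie above it and the zinc depleted replicates 2 and 3 below.

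**Figure D4:**
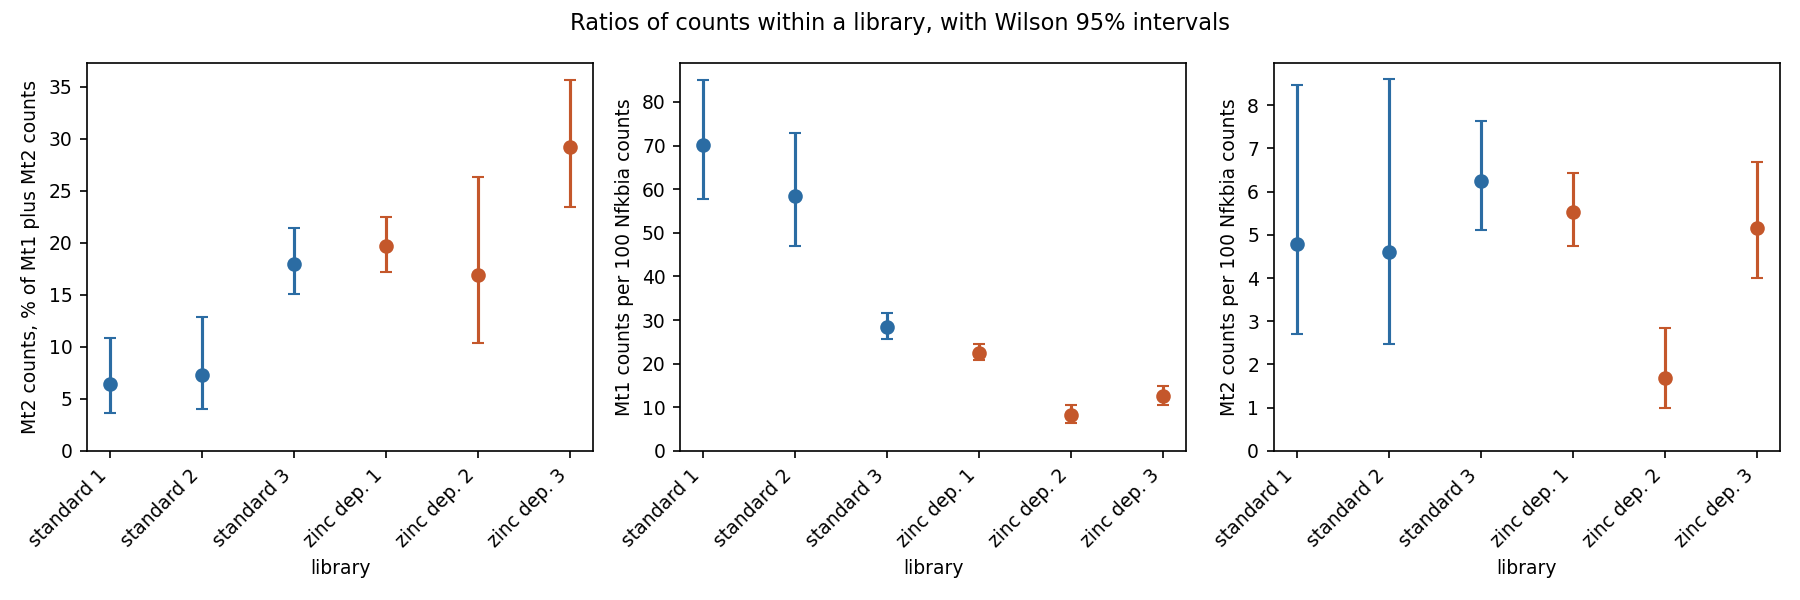
Share of Mt2 in the Mt1 and Mt2 counts, and counts of Mt1 and of Mt2 per 100 Nfkbia counts, by library, with Wilson 95% intervals (counting error only). Mt1 per Nfkbia is above 28 in the standard diet libraries and below 23 in the zinc depleted ones.

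Genes of the TNF and NF-κB response were then set beside Mt1 and Mt2. Of 28 listed, 24 were tested, 23 had a higher estimate on the zinc depleted diet and 1 a lower one, with a median of 1.06, but 0 were called by edgeR after adjustment and 3 had an unadjusted p under 0.05. For 14 of these 24 the highest library of each diet was standard diet replicate 3 and zinc depleted diet replicate 1, as for Mt1 and Mt2. The count was 14 in CPM and 14 in TMM-scaled CPM, with partly different genes. Over all genes tested the pattern held for 662 (6.79%) in CPM and for 1207 (12.4%) in TMM-scaled CPM. The pattern was looked for after it had been seen in Mt1 and Mt2, and is a description.

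Birc3, an inhibitor of TNF-induced cell death, illustrates it, with 9.13, 20.0 and 59.6 CPM on the standard diet and 117, 36.1 and 21.8 CPM on the zinc depleted diet. Bcl3, a nuclear IκB protein, had 21.9, 28.5 and 68.8 against 158, 26.4 and 11.3 CPM. Nfkb2, the precursor of the p52 subunit, differed in CPM, where standard diet replicate 2 was the highest of its diet. It was at 20.0, 98.2 and 67.1 against 188, 29.1 and 15.0 CPM. In TMM-scaled CPM Nfkb2 shared the pattern, at 11.6, 65.4 and 74.8 against 129, 45.5 and 32.8. Over the list, zinc depleted diet replicate 1 was the highest of its diet for 22 of 24 genes in CPM, beside 83.6% of all genes tested. In TMM-scaled CPM it was so for 16, beside 44.4%. Standard diet replicate 3 was the highest of its diet for 16 in CPM and 21 in TMM-scaled CPM, beside 8.95% and 39.7% of all genes.

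Acute phase and STAT3 targets were the list most often sharing the highest libraries of Mt1 and Mt2 in CPM, at 6 of 7 tested genes (5 of 7 in TMM-scaled CPM). All 7 had a positive diet estimate (median 0.89), 0 were called by edgeR and 1 had an unadjusted p under 0.05. Socs3, the feedback inhibitor of IL-6 signalling, was at 87.6, 22.8 and 165 CPM on the standard diet and at 372, 122 and 66.1 CPM on the zinc depleted diet. Steap4, a metalloreductase induced by inflammation, was at 2.04, 7.00 and 44.3 against 70.8, 9.96 and 8.46 CPM. Cebpd, an acute phase transcription factor, was at 6.27, 2.61 and 32.5 against 44.3, 22.1 and 17.9 CPM, but in TMM-scaled CPM zinc depleted diet replicate 1 was the lowest of its diet (30.5, 34.6 and 38.9). Stat3, the exception in CPM, was highest in standard diet replicate 2 and in zinc depleted diet replicate 1.

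Most of the 7 glucocorticoid targets tested did not share the highest standard diet library of Mt1 and Mt2, as most genes did not. Zinc depleted diet replicate 1 was the highest of its diet for 6 of the 7 in CPM, beside 83.6% of all genes tested. In TMM-scaled CPM it was so for 5, beside 44.4%. Standard diet replicate 3 was the highest of its diet for 1 of the 7 on either scale. Over all genes this held for 8.95% in CPM and 39.7% in TMM-scaled CPM. The 1 target was Dusp1, a MAP kinase phosphatase that TNF also induces. It was at 0.409, 0.814 and 14.6 CPM on the standard diet and at 23.6, 5.52 and 4.07 CPM on the zinc depleted diet. Fkbp5, a chaperone of the glucocorticoid receptor and a common readout of it, was highest in standard diet replicates 1 and 2, at 25.8 and 33.4 CPM, where Mt2 was low. It was at 9.62 CPM in standard diet replicate 3 and at 18.5, 3.50 and 2.43 CPM on the zinc depleted diet. Klf9, a transcription factor, was highest in standard diet replicate 1 and zinc depleted diet replicate 1, and Sgk1, a kinase, in replicate 2 of both diets. The list had 4 positive and 3 negative diet estimates with a median of 0.52, 0 edgeR calls and 3 genes at an unadjusted p under 0.05.

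Other genes that Mtf1 is known to control did not move as a group with Mt1 and Mt2. The list was not split by whether Mtf1 raises or lowers a gene, so no common direction need follow. Slc30a1, the zinc exporter of the cell surface and a classical Mtf1 target, was at or below 1.23 CPM in each library and was not tested. Of 8 listed genes 5 were tested, 4 with a positive estimate, with a median of 0.37, 0 edgeR calls and 0 at an unadjusted p under 0.05. In CPM, 2 of the 5 had their highest libraries in common with Mt1 and Mt2, and 1 did in TMM-scaled CPM. Gclc, the catalytic subunit of glutathione synthesis, was at 20.2, 49.4 and 91.4 CPM on the standard diet and at 262, 41.2 and 31.8 CPM on the zinc depleted diet. Csrp1, a LIM domain protein, was at 46.7, 56.7 and 93.0 against 114, 64.5 and 48.2 CPM, but at 78.4, 101 and 105 TMM-scaled CPM on the zinc depleted diet, where replicate 1 was then the lowest. By contrast Ndrg1, which Mtf1 and hypoxia both affect, was highest in standard diet replicates 1 and 2 (81.3 and 82.4 CPM).

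The zinc transporters of this list, which does not hold Slc30a1, were present throughout, and 11 of 11 were tested. The estimates were positive for 6 and negative for 5 with a median of 0.33, 0 were called by edgeR and 1 had an unadjusted p under 0.05. Slc30a2, which loads zinc into secretory vesicles, was at 52.1, 47.4 and 25.7 CPM on the standard diet and at 75.6, 22.1 and 19.7 CPM on the zinc depleted diet. Slc39a4, the importer of dietary zinc, was at 34.1, 37.0 and 24.0 against 44.9, 11.0 and 8.22 CPM, and its standard diet order turned in TMM-scaled CPM (19.8, 24.6 and 26.7). With total counts alone the estimates of Slc30a2 and of the Golgi transporter Slc30a7 turned to −0.09 and −0.02, from 0.52 and 0.48. In CPM, 1 of the 11 shared its highest libraries with Mt1 and Mt2, and 5 did in TMM-scaled CPM. All 11 were highest in zinc depleted diet replicate 1 of their diet in CPM, as were 83.6% of all genes tested. In TMM-scaled CPM this held for 7 of the 11, beside 44.4% of all genes.

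Among genes of oxidative, heat and dissociation stress, 13 of 16 were tested, 9 with a positive estimate, with a median of 0.38, 0 edgeR calls and 1 at an unadjusted p under 0.05. The highest libraries were those of Mt1 and Mt2 for 6 of them in CPM and for 6 in TMM-scaled CPM. Junb, a subunit of AP-1, was at 52.9, 26.5 and 180 CPM on the standard diet and at 292, 106 and 69.2 CPM on the zinc depleted diet. Egr1, an immediate early transcription factor, was at 8.86, 1.95 and 47.5 against 69.0, 10.1 and 5.79 CPM. Immediate early genes can also rise while tissue is dissociated into cells, and their part in the differences between libraries was not tested. Hmox1 and Gclm, targets of the oxidative stress factor Nrf2, were highest in standard diet replicate 2 and zinc depleted diet replicate 1 in CPM. In TMM-scaled CPM Hmox1 was highest in replicate 3 of both diets and Gclm in replicate 2 of both.

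**Figure D5:**
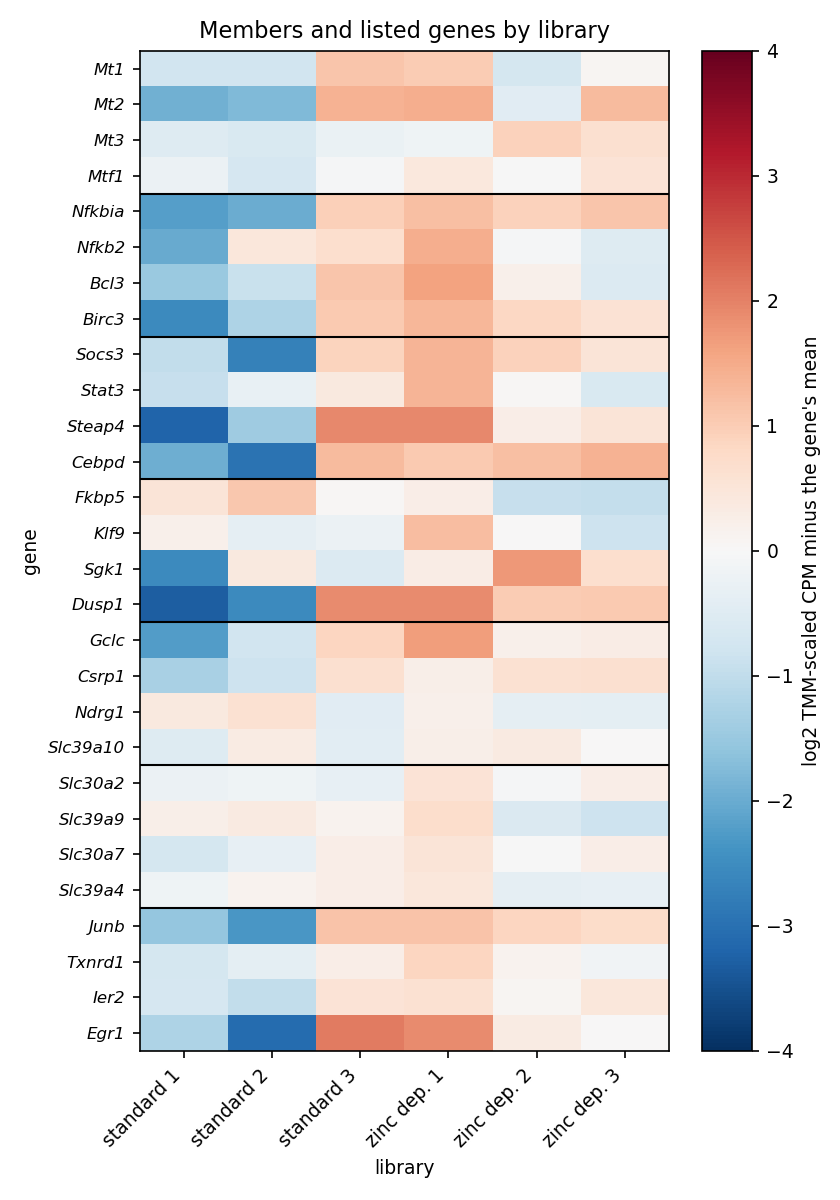
Log2 TMM-scaled CPM minus the mean of each gene over the 6 libraries, for the members (top block) and up to 4 genes of each list. From the second block down the lists are TNF and NF-κB, acute phase, glucocorticoid, other Mtf1 targets, zinc transporters and stress. Mt2, Steap4, Dusp1, Junb and Egr1 are high in standard diet replicate 3 and zinc depleted diet replicate 1 and low in standard diet replicates 1 and 2. Mt2 is nearly as high in zinc depleted diet replicate 3, and Junb in zinc depleted diet replicates 2 and 3.

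The genes most like each member over the 6 libraries were ranked by Pearson's r of log2 TMM-scaled CPM, as a measure of likeness, among genes with a mean log2 CPM of at least 4. For Mt1, of 2309 genes, these were Calu (r = 0.97), Shc1 (0.97), Trib1 (0.95), Traf4 (0.94) and Phlda1 (0.93). For Mt2, of 2310, they were Cog3 (0.98), Slc66a2 (0.98), Trib1 (0.97), Ier2 (0.97) and Phlda1 (0.96). Trib1 and Phlda1 stood on both lists. Mtf1 had other neighbours, namely Carhsp1 (0.97), Dnajc3 (0.97), Prxl2a (0.96), Rassf3 (0.96) and Kcnk1 (0.94). The libraries share depth and composition across genes, 6 points give many high values among so many genes, and these coefficients are descriptions. Standard diet replicates 1 and 2 were also the lowest libraries for each gene named for Mt2. Ier2, for instance, was at 4.29 and 3.99 log2 TMM-scaled CPM there and at 5.05–5.59 in the rest. Phlda1 showed almost no gap, at 3.82 in standard diet replicate 2 and in zinc depleted diet replicate 2. The coefficients of Mt2 therefore also describe low values in standard diet replicates 1 and 2, with a smaller gap than for Nfkbia.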

How the data were processed

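Sorted Paneth cell RNA had been sequenced as single-end reads. The authors deposited raw counts per gene, and the submitters' notes name FastQC, Trimmomatic 0.39, STAR 2.7.10a, DESeq2 and build mm39. No source used here gives the counting program or its strand setting. Symbols and positions came from GENCODE on GRCm39, which held 54749 of 55414 identifiers.

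Diets were compared over 3 libraries each with the quasi-likelihood test of edgeR 4.0.16 (R 4.3.3; TMM, filterByExpr, two-sided, Benjamini-Hochberg over 9749 genes, threshold 0.05; limma 3.58.1 and DESeq2 1.42.0 in alternatives). A prior count of 2 was added for log2 CPM. The code was tested on simulated data. The design text calls the replicates biological. Other tools, scalings, filters and subsets of libraries were tried as alternatives. The members and lists were chosen with earlier results of these data known. Named genes were the members, Nfkbia, up to 4 genes per list with the highest mean CPM, and the 5 genes most like Mt1, Mt2 and Mtf1. Genes named outside this rule, among them Slc30a1, Hmox1, Gclm and Slc39a5, were chosen after their values were seen.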

Additional observations from a re-analysis of the deposited data

How the results depend on the processing

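No alternative called a member: edgeR, DESeq2 or limma-voom adjusted p-values ranged from 0.347 to 1.00 for Mt1, 0.103 to 1.00 for Mt2, 0.461 to 1.00 for Mt3 and 0.376 to 1.00 for Mtf1. Mt3 did not pass the filter without zinc depleted diet replicate 1. The count of genes called went from 0 to 10 with DESeq2, to 76 with no low-count filter and to 28 without standard diet replicate 3, a range of 0 to 28 when single libraries were left out. The Mt1 estimate changed sign with total counts only (−0.00398). It lay between −0.39 and 1.14 when single libraries were left out, negative without standard diet replicate 1 (−0.15), standard diet replicate 2 (−0.15) and zinc depleted diet replicate 1 (−0.39). Mt2 ranged from 0.45 to 3.10 and Mtf1 from 0.52 to 0.87 on leaving out single libraries. The difference in the Mt2 share ranged from 7.72 to 15.1 percentage points without single libraries and was 7.32 from summed counts. The log2 difference of Mt1 per Nfkbia ranged from −2.27 to −1.54 on leaving out libraries, and that of Mt2 from −0.81 to 0.0487, changing sign without zinc depleted diet replicate 2 (0.0487). These ratios and their alternatives were chosen after seeing the data. The cause of these changes was not tested.

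Replicate numbers are shared between the diets. Deviations of same-numbered libraries from their group means correlated at 0.15, −0.06 and 0.25 for numbers 1, 2 and 3, so the numbers were not taken to pair the samples. With the replicate block the fit called 0 genes, with 962 at an unadjusted p under 0.05 against 645 without it. The block gave 0.27 for Mt1, 1.56 for Mt2, 1.08 for Mt3 and 0.68 for Mtf1, and a Mt2 share difference of 11.4 points (exact sign-flip permutation p = 0.25).

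For the 24 other listed genes shown, 296 of 312 estimates over 13 alternatives kept their direction. Nfkbia, Cebpd and Dusp1 were called without standard diet replicate 3, and no other of these genes under any alternative. DESeq2 returned no p-value for Nfkbia, Steap4, Dusp1 and Junb. No coefficient over the 6 libraries is given for Mt1 or Mt2 with Nfkbia, whose values fell into 2 clusters. The planned exact tests of Mt1 and Mt2 with Nfkbia gave no call after adjustment over all genes (exact permutation, adjusted p = 1 and 0.383). Over the alternatives the adjusted p of these exact permutation tests ran from 0.548 to 1 and from 0.373 to 1. The exact test had 720 pairings of the 6 libraries, too few for an adjustment over so many genes. With Mt2, the lowest adjusted p of any gene was 0.347 in the exact permutation test. A call was therefore hardly attainable, and these tests do not decide whether Mt1 or Mt2 followed Nfkbia. Depth limits Mt3 and, in standard diet replicates 1 and 2 and zinc depleted diet replicate 2, Mt2.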

Other observations

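Slc39a5 is a zinc importer of the basolateral membrane and of pancreatic cells. It had the smallest p-value among the 11 listed zinc transporters, and was picked out after its values were seen. Its level was 25.3, 16.3 and 9.02 CPM in standard diet replicates 1, 2 and 3. In zinc depleted diet replicates 1, 2 and 3 it was 7.11, 2.69 and 2.74 CPM. The diets did not overlap in CPM or in TMM-scaled CPM, as for 10.9% and 10.1% of all genes tested. The log2 fold change was −1.24 (SE 0.38), with an unadjusted edgeR p of 0.00778 that did not survive adjustment (0.681). Over 13 alternatives the estimate stayed negative, and the adjusted p stayed between 0.123 and 1.00. Marker sums of stem and proliferating, enterocyte and enteroendocrine cells, in CPM, were also higher in each standard diet than in any zinc depleted library. With total counts alone the median estimate of all genes was −0.67, and marker sums in TMM-scaled CPM were not computed. The part of these cells in the difference for Slc39a5 was not tested.

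Standard diet replicates 1 and 2, low in Mt2 and Nfkbia, differed from the third in other inflammatory genes as well. Their share of the ribosomal RNA Rn18s-rs5 was also higher (2.56% and 2.91% against 1.27%), and its part in this difference was not tested. Cxcl10, an interferon-induced chemokine named after its values were seen, was at 0.136, 0.326 and 12.2 CPM on the standard diet and at 15.0, 3.90 and 5.01 CPM on the zinc depleted diet. Tnf itself was at 0.818, 0.814 and 7.82 against 27.3, 7.81 and 12.1 CPM.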
